A study of Mus musculus with 20 samples.

Results

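Genes with a trough at E15.5 (E for embryonic day) are those whose transcript levels in serotonin (5-HT) neurons were lower at E15.5 than at E11.5 and higher again after birth. They were chosen on measured levels in wild-type libraries. The mean log2(FPKM + 1) of the 3 libraries of a stage had to be at least 1.5 lower at E15.5 than at E11.5, and at least 1.5 higher in postnatal (PN) neurons than at E15.5. No library could overlap across either interval. FPKM, the unit of every level here, divides the read fragments of a gene by its transcript length and by the library size, so it can be compared between genes. Of 18888 genes eligible by estimate status and symbol, 106 met this rule, or 0.561%, in a matrix of 22556 genes. A further 48 genes met the values but were left out by status or symbol. The mirrored rule, for genes high at E15.5 only, was met by 187 genes. The fall to E15.5 and the return after birth are what chose the 106 genes, so both are given as description, without a test.

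The series profiled RNA of EYFP-positive 5-HT neurons sorted by flow cytometry from C57BL/6 mice. EYFP is a fluorescent label, and the sort enriches each sample for cells in which the reporter is on. Wild-type neurons were taken at E11.5, at E15.5 and on postnatal days 1 to 3, as 3 libraries per stage made with a Clontech kit. At E15.5, Pet-1-/- neurons were also compared with wild-type neurons, as 3 libraries of each genotype in a Clontech and in a NuGEN series. For chromatin, Myc-tagged Pet-1 was precipitated from dissected hindbrain of embryos carrying ePet-mycPet-1 and ePet-EYFP, as 1 sample with 1 input. One label field gives that embryo as wild type and another as Pet-1-/- with the tagged transgene. Collection began at E12.5, and the last age is E14.5 in one field and E15.5 in another. The sources used here do not state that replicate libraries came from separate animals, so p-values measure only the spread between these samples, which may be technical.

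5-HT neurons of the hindbrain make the transmitter serotonin and take it back up through the transporter encoded by Slc6a4. Pet-1, the ETS-family transcription factor encoded by Fev, is needed for their serotonin identity. Between mid-gestation and the first days after birth these neurons leave the cycle, extend axons and begin to form synapses.

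A stage library held 630091 to 919994 FPKM in all and 9614 to 11280 genes at 1 FPKM or more. Its number of reads is unknown. Correlations of log2 values between libraries were 0.903 to 0.966 within stages and 0.794 to 0.888 between stages. All 9 serotonin neuron markers were detected, with summed levels of 1089 to 1540 FPKM at E11.5, 489 to 606 at E15.5 and 511 to 790.5 in PN libraries. Fev itself had 0.308 FPKM in Pet-1-/- and 34.9 in wild-type neurons in the NuGEN series, and 0.423 in Pet-1-/- and 31.1 in wild-type neurons in the Clontech series, in the authors' deposited tables. In bulk RNA, fewer cells of a type and less RNA per cell cannot be told apart.

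The median level of the 106 genes was 33.4 FPKM at E11.5, 6.22 at E15.5 and 33.0 in PN neurons, while the medians of the 11741 genes tested were 6.47, 6.32 and 6.74 FPKM. The depth of a trough, which is the smaller of its 2 flanks on the log2 scale, reached 9.22 with a median of 1.79. Among the 103 members with signal at E15.5, levels were lower at E15.5 than at E11.5 by a median of 4.80-fold, and higher in PN than at E15.5 by a median of 5.02-fold. The other 3, Mtrnr2l and Rnu12 among them, were listed at 0 in every E15.5 library, so no fold is given for them. The members nearest the limit on the inside were Gde1, Med9, Rem2, Nxph4 and Cog8, with depths of up to 1.51. Nearest on the outside were Ptov1, Map2k7, Mbd3, Bbc3 and Lrrc16b, with depths between 1.48 and 1.49. The heat map of members shows the trough in every row, with differences in how far the PN level returned, and groups the genes by roles assigned after their values were seen. No role is given for 13 of them.

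**Figure D1:**
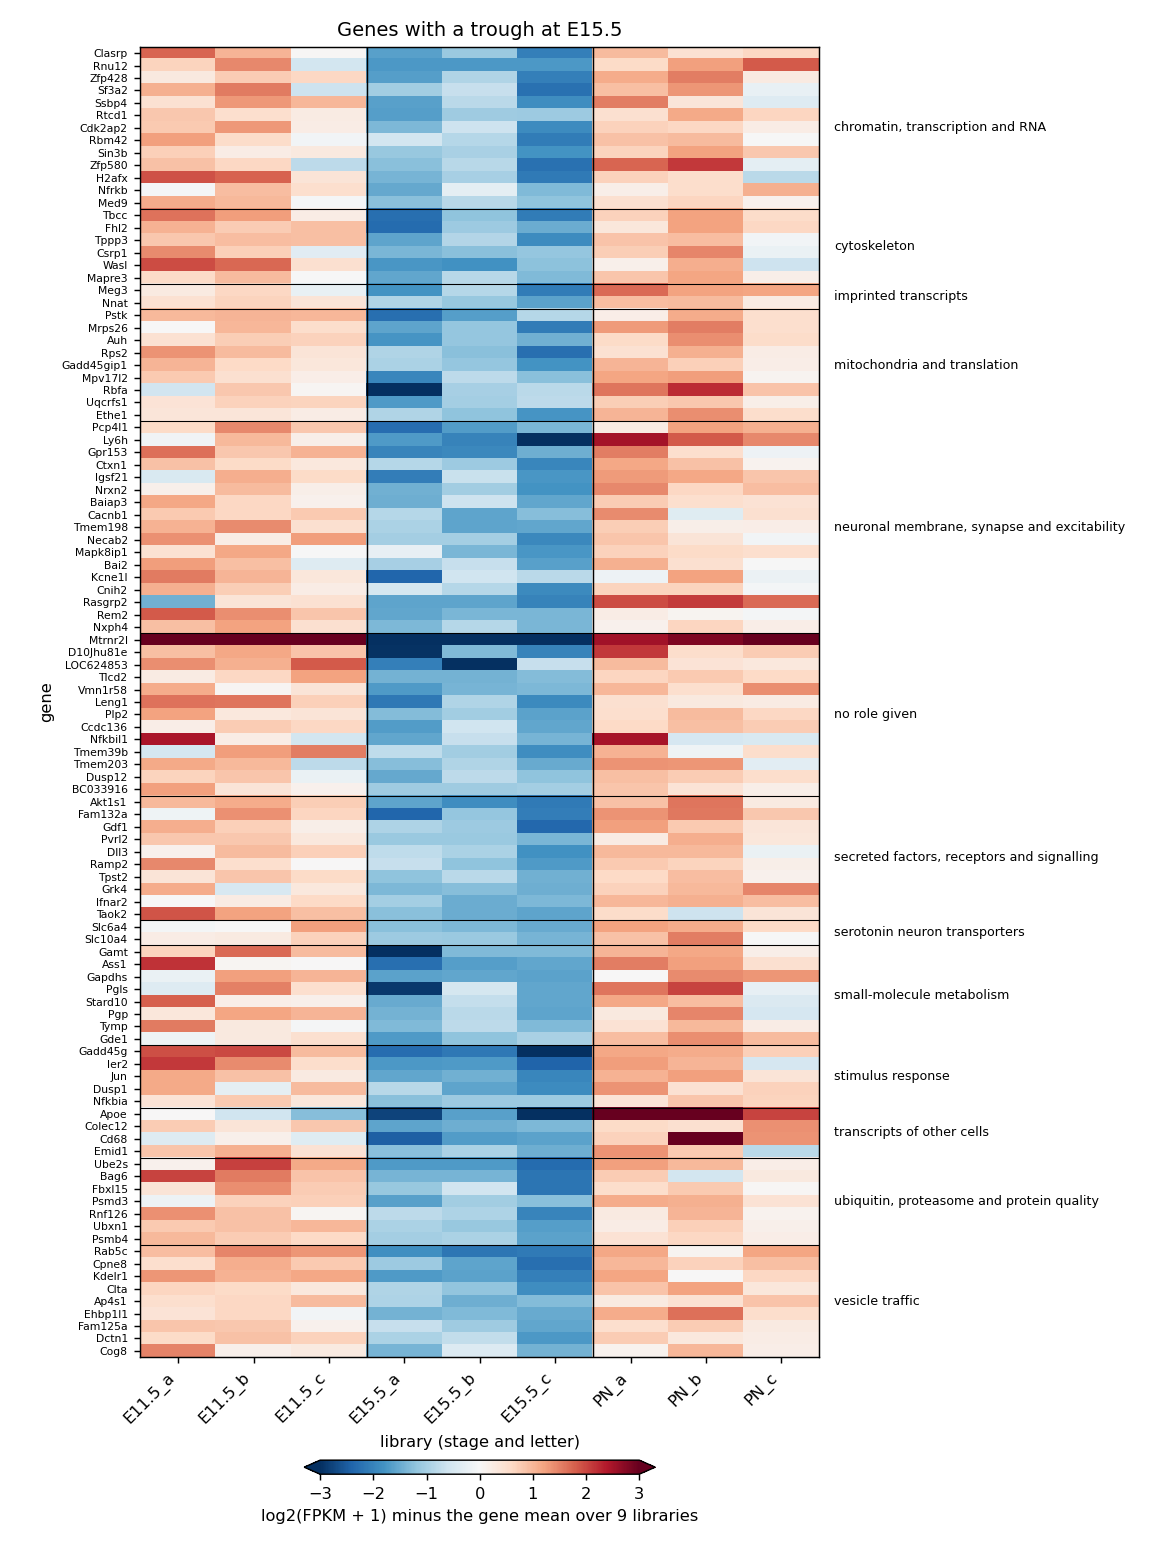
Level of the member genes (rows, grouped by role, with 1 of the 106 not shown) in the 9 wild-type libraries (columns), as log2(FPKM + 1) minus the gene's mean over the 9 libraries. Blue cells fill the 3 E15.5 columns, which is what the selection rule fixed, while Apoe, Rasgrp2 and Ly6h are darkest red in PN columns and Rem2 and Bag6 in E11.5 columns.

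Members were not evenly low in all E15.5 libraries. Library c, a letter that follows column order only, was the lowest E15.5 library for 56.6% of members and for 39.49% of all genes tested. Library b was the highest E15.5 library for 53.77% of members and for 30.59% of genes tested. Library c was also the lowest PN library for 66.98% of members and for 32.15% of genes tested. Without E15.5 library c, 80 of the 106 members still met the rule. Without each of the 9 libraries in turn, 58 met it every time. A summed set of 16 microglia and macrophage markers included the member Cd68. The sum lay between 13.8 and 17.0 FPKM at E11.5, 26.5 and 51.4 at E15.5, and 195 and 1577 in PN libraries. Summed markers of red blood cells (10 measured) reached at most 10.2 FPKM at E11.5, 66.2 at E15.5 and 13.4 in PN libraries. Summed markers of dividing cells (11 measured) lay between 109 and 142 FPKM at E11.5, 165 and 242 at E15.5, and 109 and 147 in PN libraries. Summed markers of astrocytes and radial glia (16 measured) lay between 487 and 648 FPKM at E11.5, 1067 and 2004 at E15.5, and 1232 and 5968 in PN libraries. That list includes the member Apoe, which had 19.2, 44.3 and 7.80 FPKM at E15.5, and 1244, 4698 and 566 in PN libraries. Apoe made up most of the highest PN sum. Summed markers of the oligodendrocyte lineage (10 measured) lay between 22.6 and 32.1 FPKM at E11.5, 48.9 and 128 at E15.5, and 38.1 and 48.04 in PN libraries. Whether these other cells had a part in the trough was not tested.

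The deepest trough of a protein-coding gene with an unambiguous name belonged to the stimulus-response genes, which cells switch on within minutes of a signal. Gadd45g, a small protein induced by growth arrest and DNA damage, had 284, 293 and 143 FPKM at E11.5, 14.2, 15.9 and 5.83 at E15.5, and 164, 161 and 122 in PN libraries. Its depth was 3.62 on the log2 scale, and its lowest PN library stood far above its highest E15.5 library. Jun, a subunit of the transcription factor AP-1, had 16.0, 13.2 and 8.39 FPKM at E11.5, 1.66, 1.86 and 1.01 at E15.5, and 15.1, 17.1 and 9.14 in PN libraries. Library c was the lowest in each stage. Ier2, an immediate early nuclear protein, had 105, 63.4 and 33.9 FPKM at E11.5, 6.31, 6.48 and 3.61 at E15.5, and 56.9, 47.9 and 16.2 in PN libraries. Dusp1, a phosphatase that switches off MAP kinases, had 37.7, 13.7 and 33.1 FPKM at E11.5, 8.94, 4.86 and 3.81 at E15.5, and 44.1, 23.1 and 27.4 in PN libraries. Its lowest E11.5 library was 13.7 FPKM, close to the highest E15.5 library. Nfkbia, which holds the factor NF-kB in the cytoplasm, was the most even of the 5, at 94.2 ± 16.4, 29.0 ± 2.01 and 103 ± 15.4 FPKM in the 3 stages (SD, n = 3 each).

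These 5 genes are the members among 70 tested genes of 5 stimulus-response lists. In the limma fit over all 11741 genes (adjusted p below 0.05 and at least 1.5-fold), 12 of the 70 were higher and 12 lower at E15.5 than at E11.5, where 28.9% of all genes tested were called in either direction. In PN against E15.5, 23 were higher and 4 lower, against 10.6% and 9.55% of all genes tested (20.2% in either direction). Both calls, lower at E15.5 and then higher, were made for 7 of the 70 and for 3.06% of all genes tested. The rule chose the 5 members for this pattern in the same libraries, so nothing is read from these counts. The other 2 were Jund, another AP-1 subunit, with means of 41.4, 7.10 and 22.6 FPKM, and Plk3, a stress-responsive kinase, with means of 4.13, 1.10 and 5.31 FPKM at E11.5, E15.5 and PN. Fos, the usual partner of Jun, did not share the trough, with means of 8.17 ± 7.73, 16.9 ± 1.22 and 148 ± 32.8 FPKM (SD, n = 3 each). Egr1 stood at 0.871, 0.603 and 4.72 FPKM and Nr4a1 at 0.360, 0.726 and 8.68 FPKM, and both were under 1 FPKM at E11.5 and E15.5.

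The plots of 12 members by library set these next to genes of other roles.

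**Figure D2:**
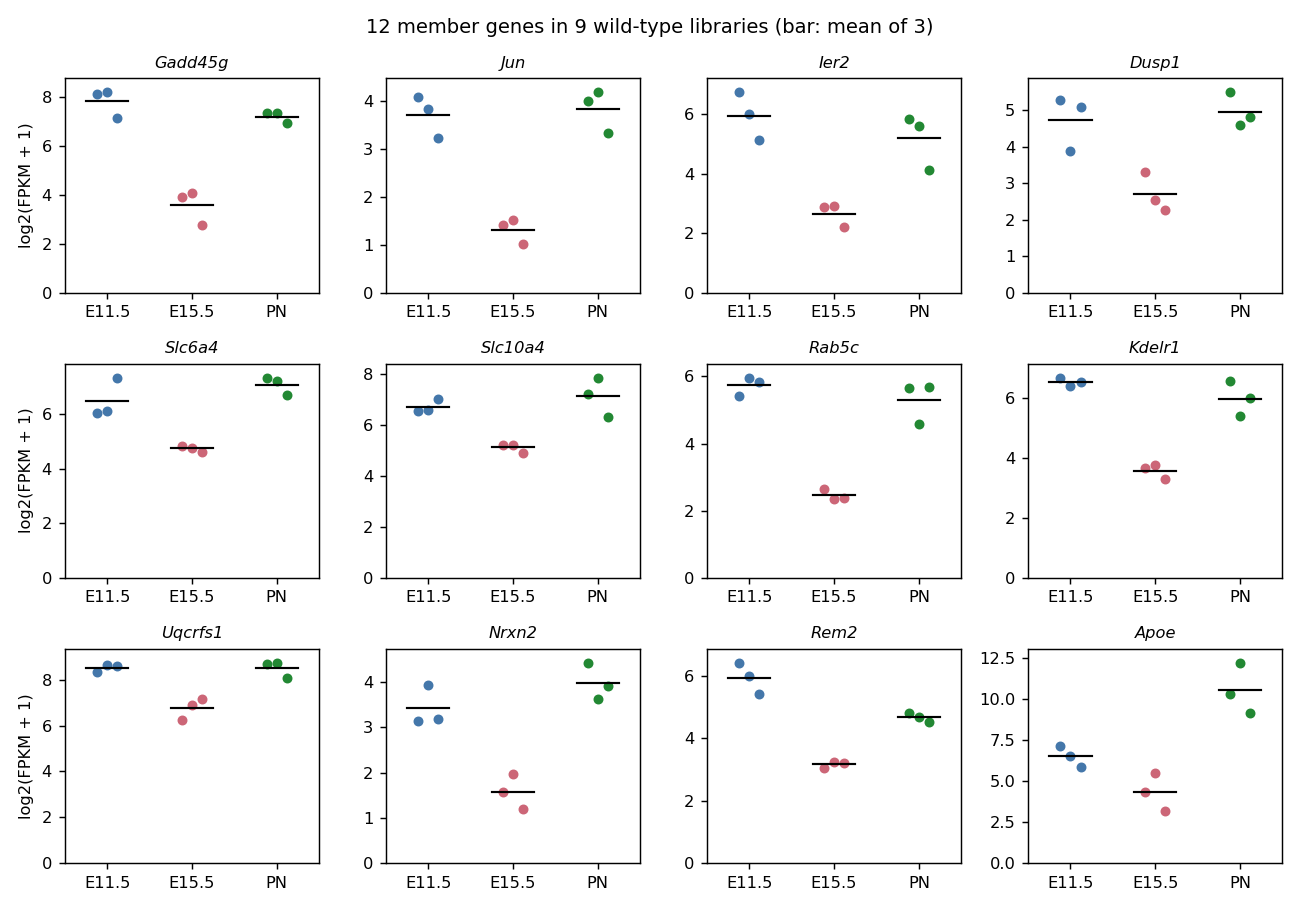
log2(FPKM + 1) of 12 members in each of 9 wild-type libraries at E11.5, E15.5 and PN; points are libraries and bars the mean of 3. In each panel the 3 E15.5 points lie below all others, Rem2 returned in PN neurons to a level under that of E11.5, and Apoe went above it.

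The regulatory sequence in front of these genes can be read from RefSeq (GRCm38.p6, the assembly also called mm10), as the 250 bases upstream of each annotated start. A window was matched for 88 of the 106 members. In those of Dusp1 and Jun, which are shown because mycPet-1 peaks overlapped both, letters in capitals mark matches to TGACGTCA, the cyclic AMP response element, or to CCGGAAG, a common ETS-factor motif, on either strand.
Dusp1 (chr17:26508473-26508722, minus strand): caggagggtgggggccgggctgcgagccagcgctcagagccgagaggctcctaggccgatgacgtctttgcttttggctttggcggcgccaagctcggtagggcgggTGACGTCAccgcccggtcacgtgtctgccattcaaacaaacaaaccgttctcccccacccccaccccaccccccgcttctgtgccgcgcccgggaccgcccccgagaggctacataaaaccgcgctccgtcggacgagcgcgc
Jun (chr4:95052223-95052472, minus strand): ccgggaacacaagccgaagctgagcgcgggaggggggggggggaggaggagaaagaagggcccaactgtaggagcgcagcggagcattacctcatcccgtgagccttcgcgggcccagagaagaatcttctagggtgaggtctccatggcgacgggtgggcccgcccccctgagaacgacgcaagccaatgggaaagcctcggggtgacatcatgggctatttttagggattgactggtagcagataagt
The window of Dusp1 held 1 match to TGACGTCA and that of Jun held neither motif. The peak at Dusp1 ran from 26507622 to 26508525 on chromosome 17, with the authors' score of 75.82, and those at Jun had scores of 104.75 and 85.71.

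Both transporters of serotonin neurons in the set, Slc6a4 and Slc10a4, kept a clear E15.5 level. Slc6a4 carries serotonin back into the cell. It had 65.2, 68.2 and 161 FPKM at E11.5, 27.8, 26.3 and 23.4 at E15.5, and 159.8, 149 and 104 in PN libraries. One E11.5 library, c, was as high as the PN libraries. Slc10a4, a synaptic vesicle protein of monoamine and cholinergic neurons, had 92.4, 95.5 and 128 FPKM at E11.5, 36.5, 35.9 and 29.2 at E15.5, and 147, 232 and 77.8 in PN libraries. Of 13 tested genes for serotonin synthesis, transport and breakdown, 4 were called lower at E15.5 and then higher by limma, namely Spr, Qdpr, Pcbd1 and Slc6a4, which the rule chose for this pattern. Of all genes tested, 3.06% had both calls. Spr, Qdpr and Pcbd1 make or recycle the cofactor of the synthesis enzyme Tph2, and their PN means were 1.04, 1.03 and 1.47 higher than at E15.5 on the log2 scale, below the 1.5 that the rule asked for. Tph2 had means of 188, 64.1 and 91.5 FPKM at the 3 stages, and PN against E15.5 did not pass the limma test (adjusted p = 0.417, n = 3 each).

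The 17 members of the neuronal membrane, synapse and excitability had trough depths of 1.51 to 2.62 (median 1.73 on the log2 scale). Ly6h, a surface protein that binds nicotinic receptors, had 238, 504 and 291 FPKM at E11.5, 78.7, 63.6 and 28.6 at E15.5, and 1442, 919.9 and 695 in PN libraries. Every PN library of Ly6h exceeded every E11.5 library. Pcp4l1, a relative of the calmodulin regulator Pcp4, had 8.75 ± 3.16, 0.474 ± 0.447 and 8.16 ± 2.97 FPKM, and the orphan receptor Gpr153 had 10.8 ± 3.65, 0.489 ± 0.302 and 7.84 ± 5.24 FPKM (SD, n = 3 each). The presynaptic adhesion gene Nrxn2 had 7.87, 14.3 and 8.07 FPKM at E11.5, 1.96, 2.89 and 1.30 at E15.5, and 20.6, 11.3 and 14.0 in PN libraries. Its E11.5 and PN libraries overlapped. Nrxn3, another neurexin, had 0.752, 6.81 and 8.56 FPKM over the stages and was higher at E15.5 than at E11.5 (limma, adjusted p = 0.00193, n = 3 each). Nxph4, one of the secreted neurexophilins that bind neurexins, had 5.42, 0.536 and 3.36 FPKM, while Nxph1 had 14.2, 92.8 and 48.6 FPKM.

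Among the calcium channel genes, Cacnb1, which encodes an auxiliary beta subunit, had 6.91, 6.01 and 6.85 FPKM at E11.5, 1.51, 0.524 and 0.886 at E15.5, and 11.2, 2.57 and 5.32 in PN libraries. Its PN values spread widely, and PN library b lay closest to E15.5. Another beta subunit gene, Cacnb3, also dipped, with means of 84.1, 39.1 and 74.3 FPKM. Of 4 tested beta subunit genes, limma called 2 lower at E15.5 and then higher. RefSeq places Rpl19 over part of the Cacnb1 span, and whether counting used the strand is not stated in the labels or headers. Rem2, a small GTPase that restrains calcium channels, had 85.4, 62.9 and 41.8 FPKM at E11.5, 7.24, 8.45 and 8.34 at E15.5, and 27.4, 24.7 and 22.1 in PN libraries. The 3 PN libraries lay below all 3 E11.5 libraries. Rasgrp2, a calcium-sensing activator of Rap GTPases, had 2.34, 10.9 and 11.4 FPKM at E11.5, 2.01, 2.04 and 1.27 at E15.5, and 34.0, 37.9 and 28.4 in PN libraries. Its E11.5 library a lay only just above E15.5. Cnih2, an auxiliary protein of AMPA-type glutamate receptors, had 89.1, 26.5 and 74.5 FPKM, whereas its relative Cnih had 149.5, 206 and 205 FPKM.

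Promoter windows of Tmem198, a membrane protein with means of 14.8, 2.10 and 9.21 FPKM, and of Rasgrp2 at its second annotated start are shown with the same capitals, because each holds a motif match and lies under a mycPet-1 peak.
Tmem198 (chr1:75479282-75479531, plus strand): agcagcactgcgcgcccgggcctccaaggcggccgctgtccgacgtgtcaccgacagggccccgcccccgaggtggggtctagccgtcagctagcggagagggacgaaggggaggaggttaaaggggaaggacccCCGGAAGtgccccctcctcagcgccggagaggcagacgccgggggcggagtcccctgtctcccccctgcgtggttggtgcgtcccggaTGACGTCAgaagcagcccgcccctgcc
Rasgrp2 (chr19:6401455-6401704, plus strand): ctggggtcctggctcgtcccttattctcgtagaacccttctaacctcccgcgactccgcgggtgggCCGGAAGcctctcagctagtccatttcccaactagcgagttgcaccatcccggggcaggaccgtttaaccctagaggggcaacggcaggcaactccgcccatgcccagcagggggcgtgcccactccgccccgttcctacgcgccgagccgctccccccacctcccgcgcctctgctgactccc
Tmem198 carried both motifs in one window, and Rasgrp2 carried CCGGAAG. The peak at Tmem198 had a score of 144.37 and that at Rasgrp2 a score of 53.75, where the lowest score of any peak was 50.

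Vesicle traffic and the cytoskeleton gave 9 and 7 members. Rab5c, a GTPase of early endosomes, had 42.1, 61.5 and 55.5 FPKM at E11.5, 5.31, 4.06 and 4.15 at E15.5, and 49.6, 22.8 and 50.02 in PN libraries. The E15.5 libraries were tight and PN library b stood apart from the other PN libraries. Rab5c was the only member among 49 tested Rab genes, and the median Rab gene was 0.36 higher at E15.5 than at E11.5 on the log2 scale. Limma called 2 of the 49 lower at E15.5 and then higher, against 3.06% of all genes tested. Kdelr1, a receptor that returns escaped proteins to the endoplasmic reticulum, had 103, 84.3 and 92.3 FPKM at E11.5, 11.7, 12.6 and 8.94 at E15.5, and 94.0, 41.2 and 63.1 in PN libraries. Its relative Kdelr2 had 17.6 ± 5.57, 38.1 ± 6.95 and 30.1 ± 6.94 FPKM (SD, n = 3 each). In these libraries the most abundant KDEL receptor gene at E15.5 was not the one at E11.5 or PN, but the rule chose Kdelr1 for its dip. With the NuGEN kit Kdelr1 had 30.2 FPKM in wild-type neurons at E15.5. Clta, the clathrin light chain A, had 361, 105 and 453 FPKM, while the heavy chain gene Cltc had 13.8, 10.96 and 18.6 FPKM. Cpne8, a copine that binds membranes with calcium, had 78.8, 14.4 and 82.2 FPKM, and Dctn1, a dynactin subunit that links dynein to its cargo, had means of 13.7 FPKM at E15.5 and 41.5 in PN neurons. In the cytoskeleton group, Tbcc, a cofactor in folding tubulin, had 51.5, 39.1 and 18.7 FPKM at E11.5, 2.52, 6.30 and 2.94 at E15.5, and 26.3, 37.9 and 23.8 in PN libraries. Fhl2, a LIM-domain adaptor, had 24.0 ± 2.39, 3.51 ± 1.77 and 21.6 ± 7.25 FPKM (SD, n = 3 each). Wasl, the neuronal Wiskott-Aldrich protein that starts actin branching, had 22.7, 1.79 and 9.76 FPKM, with a PN mean under that of E11.5.

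**Figure D3:**
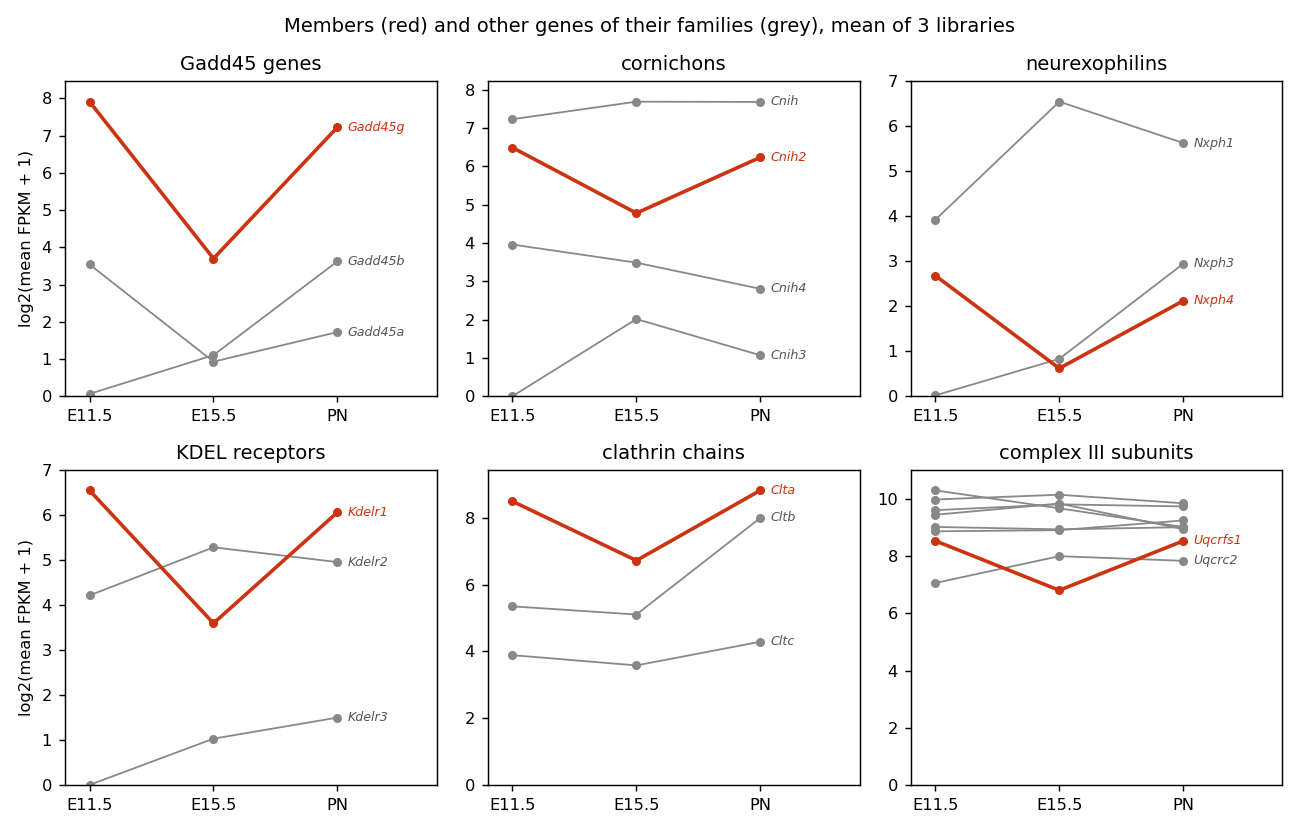
log2(mean FPKM + 1) at E11.5, E15.5 and PN for 6 gene families that hold a member; each line is a gene, red for the member and grey for the other genes tested, and the mean is over 3 libraries. Nxph4, Kdelr1 and Cnih2 dip at E15.5, where Nxph1, Kdelr2 and Cnih are at or near their highest, and Uqcrfs1 is the only complex III line with a dip of this depth.

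Mitochondria, translation and protein turnover gave 9 and 7 members. Uqcrfs1, the Rieske iron-sulphur subunit of respiratory complex III, had 325, 396 and 389 FPKM at E11.5, 73.7, 119 and 140.1 at E15.5, and 408, 429 and 273 in PN libraries. Of 8 complex III genes tested it was the only member, and the median of the 8 was 0.09 higher at E15.5 than at E11.5 on the log2 scale. Mrps26 was the only member among 76 mitochondrial ribosomal genes, and it had 154 ± 52.1, 34.6 ± 11.3 and 235 ± 79.1 FPKM (SD, n = 3 each). Limma called 5 of the 76 lower at E15.5 and then higher, against 3.06% of all genes tested. Pstk, the kinase that prepares the transfer RNA for selenocysteine, had 52.7 ± 1.08, 8.66 ± 4.69 and 41.2 ± 14.0 FPKM (SD, n = 3 each). Of 36 proteasome genes 2 were members, Psmb4 at 532, 137 and 413 FPKM and Psmd3 at 37.7, 10.5 and 51.4 FPKM. Ube2s, which extends ubiquitin chains for the anaphase-promoting complex, had 50.2, 194 and 102 FPKM at E11.5, 13.6, 13.4 and 8.52 at E15.5, and 110.4, 91.9 and 52.7 in PN libraries. Its E11.5 values spread widely while those at E15.5 were close together. Bag6, a chaperone for misplaced membrane proteins, had 112, 81.4 and 49.6 FPKM at E11.5, 9.49, 9.64 and 5.13 at E15.5, and 46.2, 18.0 and 33.0 in PN libraries. All its PN libraries were lower than its E11.5 libraries. Rps2, the only one of 78 cytosolic ribosomal genes, had 2432, 488 and 1949 FPKM, and reads of its many processed copies may not be told apart. The median of the 78 was -0.98 on the log2 scale at E15.5 against E11.5, and -0.40 in PN against E15.5.

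The window upstream of Uqcrfs1, which lies under a mycPet-1 peak from 30544844 to 30545653 on chromosome 13 with a score of 125.72, is shown for its match to TGACGTCA.
Uqcrfs1 (chr13:30545317-30545566, minus strand): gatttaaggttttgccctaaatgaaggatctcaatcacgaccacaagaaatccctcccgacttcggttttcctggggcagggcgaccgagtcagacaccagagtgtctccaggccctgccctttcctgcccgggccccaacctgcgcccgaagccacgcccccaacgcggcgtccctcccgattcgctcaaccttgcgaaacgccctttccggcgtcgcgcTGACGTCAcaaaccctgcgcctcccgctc
This match lies near the 3′ end of the window, next to the annotated start.

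Of the 8 members of small-molecule metabolism, Gamt, which makes creatine, had 19.3 ± 7.82, 1.77 ± 1.45 and 15.3 ± 5.32 FPKM over the stages (SD, n = 3 each). Ass1, an enzyme of arginine synthesis, had 20.4, 3.95 and 3.79 FPKM at E11.5, 0, 0.523 and 0.628 at E15.5, and 12.7, 10.2 and 5.62 in PN libraries. Library a set much of its E11.5 mean. Pgls, an enzyme of the pentose phosphate pathway, had 251 ± 160.1, 57.6 ± 42.4 and 399 ± 248 FPKM (SD, n = 3 each), and its libraries spread widely at every stage. No member stood in the lists for glycolysis (19 tested), sterol synthesis (23 tested), the unfolded protein response (29 tested) or heat shock chaperones (10 tested). Members were only 106 of all 11741 genes tested, so nothing is read from their absence in lists of this size.

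Signalling, chromatin and RNA genes made up 10 and 13 members. Akt1s1, the mTORC1 inhibitor PRAS40, had 34.5, 38.3 and 29.1 FPKM at E11.5, 5.10, 3.98 and 3.18 at E15.5, and 32.7, 54.8 and 20.8 in PN libraries. Fam132a, the secreted factor adipolin, had 11.7, 1.19 and 17.2 FPKM. Dll3, a ligand-like inhibitor of Notch, had 14.8 ± 4.24, 3.71 ± 1.64 and 15.3 ± 6.43 FPKM (SD, n = 3 each) and was the only member among 10 tested Notch pathway genes. Dll1, a Notch ligand, had 6.29, 2.19 and 1.73 FPKM with no return in PN neurons. H2afx, the histone variant that marks DNA breaks, had 152, 138 and 52.1 FPKM at E11.5, 14.47, 19.2 and 8.30 at E15.5, and 64.3, 57.3 and 22.2 in PN libraries. Cdk2ap2 had 126, 30.3 and 102 FPKM, and Sin3b, a corepressor scaffold, had 233, 71.5 and 326 FPKM. Med9, a subunit of the Mediator complex, had 16.0, 3.72 and 12.51 FPKM, and RefSeq places Rasd1 over its span. Nfrkb, a subunit of a chromatin remodelling complex, was among the least even, with 3.04 FPKM in E15.5 library b against 3.81 in its lowest E11.5 library. The 2 imprinted transcripts were Nnat, a small membrane protein of the endoplasmic reticulum, at 4156 ± 435, 1272 ± 300.4 and 4855 ± 1207 FPKM, and the noncoding RNA Meg3, at 455 ± 128, 136 ± 64.7 and 991 ± 208 FPKM (SD, n = 3 each). Nnat was the most abundant member at every stage.

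The window of Cdk2ap2 lies upstream of an annotated start inside the gene span. It is shown because it holds matches to CCGGAAG on both strands under a peak, which had a score of 60.23.
Cdk2ap2 (chr19:4097101-4097350, plus strand): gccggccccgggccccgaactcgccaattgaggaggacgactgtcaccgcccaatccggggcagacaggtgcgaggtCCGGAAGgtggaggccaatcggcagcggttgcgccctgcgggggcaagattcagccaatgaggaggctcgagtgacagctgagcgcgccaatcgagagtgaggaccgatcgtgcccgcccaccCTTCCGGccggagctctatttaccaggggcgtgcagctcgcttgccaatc
The second run of capitals is the reverse complement of the motif.

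Of the 4 members known mainly from other cells, Apoe and Cd68 were highest in the PN library with the highest summed microglia markers. Colec12 and Emid1 were not highest in that library, with 4.16, 3.80 and 7.88 FPKM and 6.23, 3.90 and 0.618 FPKM in PN libraries a, b and c. Apoe, a lipid carrier of astrocytes and macrophages, had 140.2, 90.4 and 56.2 FPKM at E11.5, 19.2, 44.3 and 7.80 at E15.5, and 1244, 4698 and 566 in PN libraries. Cd68, a lysosomal protein of macrophages, had 3.20, 5.08 and 3.24 FPKM at E11.5, 0, 0.723 and 0.806 at E15.5, and 7.83, 104 and 12.98 in PN libraries. PN library b held the highest value of both and also the highest summed microglia markers (1577 FPKM). Cd68 is itself 1 of the 16 summed markers. In the other PN libraries, Apoe was higher in a than in c, and Cd68 was lower in a than in c. At E11.5 the microglia markers C1qa and C1qc were at most 0.296 and 0.121 FPKM. Aif1, another of these markers, had 10.3 FPKM in E11.5 library a and 0 in b and c. The 16 markers summed to between 13.8 and 17.0 FPKM at E11.5. The part of other cells in the E11.5 levels of Apoe and Cd68 was not tested.

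Some of the deepest members cannot be placed with confidence. Mtrnr2l, a humanin-like gene related to mitochondrial ribosomal RNA, had 941, 787 and 1329 FPKM at E11.5, 0 in all 3 E15.5 libraries, and 481, 582 and 762 in PN libraries. RefSeq lists it as Gm20594. LOC624853 had 1243, 994 and 1698 FPKM at E11.5, 113, 47.9 and 291 at E15.5, and 917, 626 and 591 in PN libraries. Rnu12, the U12 small nuclear RNA, had means of 4.54 FPKM at E11.5 and 7.20 FPKM in PN neurons, and was at 0 in all E15.5 libraries. These genes, with Rps2 and the glyceraldehyde phosphate dehydrogenase relative Gapdhs (4.34, 0.0154 and 5.29 FPKM), share sequence with other loci. A further limit is overlap, since 37 of 104 members matched to RefSeq overlap another annotated gene. D10Jhu81e, called Gatd3a in RefSeq, had 36.7, 3.94 and 46.6 FPKM, and Clasrp, a splicing regulator, had 35.5, 4.84 and 26.4 FPKM.

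How far levels returned after birth is an interval on which the rule set no direction, although it used the same libraries. In PN against E11.5, 75 of the 106 members were within 1.5-fold, 19 were higher and 12 lower by 1.5-fold or more. The median member differed by -0.02 on the log2 scale, and the median of all genes tested by 0.08. By limma, 6 members were higher and 3 lower, 9 in all, against 27.4% of all genes tested in either direction (17.4% higher). The libraries of PN and E11.5 did not overlap for 9 members higher in PN and 7 lower, against 23.6% and 16.7% of genes tested. The rule makes both flanks tall, so these shares are not a test of the members.

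The largest difference was that of Apoe, 4.05 on the log2 scale (SE 0.70, limma, adjusted p = 0.00105, 3 of 3 PN libraries above all E11.5 libraries). Cd68 followed at 2.30 (SE 0.72, limma, adjusted p = 0.0305), which without PN library b was 1.22 and no longer called. Rasgrp2 was higher by 2.12 (SE 0.47, limma, adjusted p = 0.00474), Ly6h by 1.57 (SE 0.41, limma, adjusted p = 0.0119) and Meg3 by 1.14 (SE 0.33, limma, adjusted p = 0.0226). Gde1, an enzyme that releases glycerophospho groups from lipids, was higher by 0.87 (SE 0.29, limma, adjusted p = 0.0389). Bag6 was lower, at -1.32 (SE 0.41, limma, adjusted p = 0.0297), as were Rem2 at -1.27 (SE 0.31, limma, adjusted p = 0.00798) and Taok2, a kinase upstream of stress-activated MAP kinases, at -1.23 (SE 0.40, limma, adjusted p = 0.0362). Apoe, Rasgrp2 and Rem2 were called under every alternative run and without each of the 9 libraries in turn. The other 6 were each lost in at least 1 of these, as was Gde1 under either rescaling of the libraries. Of the 9 runs that each left out 1 library, Ly6h was called in 8, Meg3 in 7 and Cd68 in 6. Bag6 was called in 5, Taok2 in 4 and Gde1 in 3. Jun (log2 0.13), Dusp1 (0.22) and Nfkbia (0.13) in PN against E11.5 did not pass the test, nor did Gadd45g (-0.63) or Ier2 (-0.76).

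The NuGEN wild-type libraries of E15.5 were not used by the rule, so they give a separate reading of the low point, although they were normalised apart from the stage series and their group values carry no spread. For 94 of the 106 members the NuGEN wild-type value was below the lowest of the 6 E11.5 and PN libraries. Among genes with an accepted estimate, that was so for 87 of 99 members (87.88%) and for 14.4% of the other 11370 genes tested. The members were chosen for high E11.5 and PN libraries, so the 2 shares do not start from the same place. Gadd45g had 6.52 FPKM in that group value, Jun 2.26, Ier2 5.09 and Dusp1 5.59, all below the lowest E11.5 or PN library (122, 8.39, 16.2 and 13.7 FPKM). Some of the 94 were only just below it. Rab5c had 20.8 FPKM against a lowest library of 22.8, H2afx 20.95 against 22.2 and Taok2 4.38 against 4.62. For Rab5c the Clontech wild-type value was 4.58 FPKM. The other 12 members were not below their lowest E11.5 or PN library with this kit, although 9 of them lay below both stage means. The 3 that did not were Nnat, Tmem39b and Rnu12. Slc6a4 had 67.6 FPKM against a lowest library of 65.2, Slc10a4 82.7 against 77.8, Nnat 4849 against 3461, Rasgrp2 4.75 against 2.34 and Tmem39b 18.6 against 6.03. The rest of the 12 were Rnu12, Cacnb1, Mapre3, Nfkbil1, Mapk8ip1, Dusp12 and Nfrkb. Over 84 members at 1 FPKM or more with both kits, the NuGEN wild-type value was higher than the Clontech one by a median of 0.47 on the log2 scale, and by 0.04 for 9975 genes. The rule asked for low Clontech values at E15.5, so this difference is a description only. Nnat and Slc6a4 were at 1265 and 25.6 FPKM in the Clontech wild type at the same age.

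Some members differed between Pet-1-/- and wild-type neurons at E15.5 in the authors' deposited tables, which give 1 value per genotype and a q-value. In the NuGEN table (a call being q below 0.05 with a change of 1.5-fold or more, and 1 FPKM or more in a genotype), 7 of 94 tested members were higher and 6 lower in Pet-1-/- neurons, or 13.83%, against 12.7% of all genes tested (8.19% higher, 4.56% lower). The share of members is near that background. Slc6a4 had 9.05 FPKM in Pet-1-/- and 67.6 in wild-type neurons (authors' deposited q = 0.00206). The authors' deposited table also had Pgls lower, at 13.3 FPKM in Pet-1-/- and 74.7 in wild-type neurons, Rbfa, a mitochondrial ribosome assembly factor, at 3.76 and 11.6 FPKM, Tbcc at 1.63 and 6.69 FPKM, and Uqcrfs1 at 46.5 and 121 FPKM, each with q = 0.00206. Med9 was lower, at 1.83 FPKM in Pet-1-/- and 3.71 in wild-type neurons (authors' deposited q = 0.0214). Higher in that table were Cdk2ap2 (49.8 FPKM in Pet-1-/- and 22.0 in wild-type neurons, authors' deposited q = 0.00206), Plp2 (14.6 and 6.38 FPKM, q = 0.0144), Pstk (14.4 and 8.25 FPKM, q = 0.0458) and Gpr153 (2.84 and 1.26 FPKM, q = 0.0127). Igsf21, an adhesion protein of inhibitory synapses, had 3.55 FPKM in Pet-1-/- and 1.27 in wild-type neurons (authors' deposited q = 0.0167). Vmn1r58, a vomeronasal receptor gene, and Pcp4l1 were also higher, at 2.60 and 1.97 FPKM in Pet-1-/- against 1.23 and 0.470 in wild-type neurons (authors' deposited q = 0.0282 and 0.0350).

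**Figure D4:**
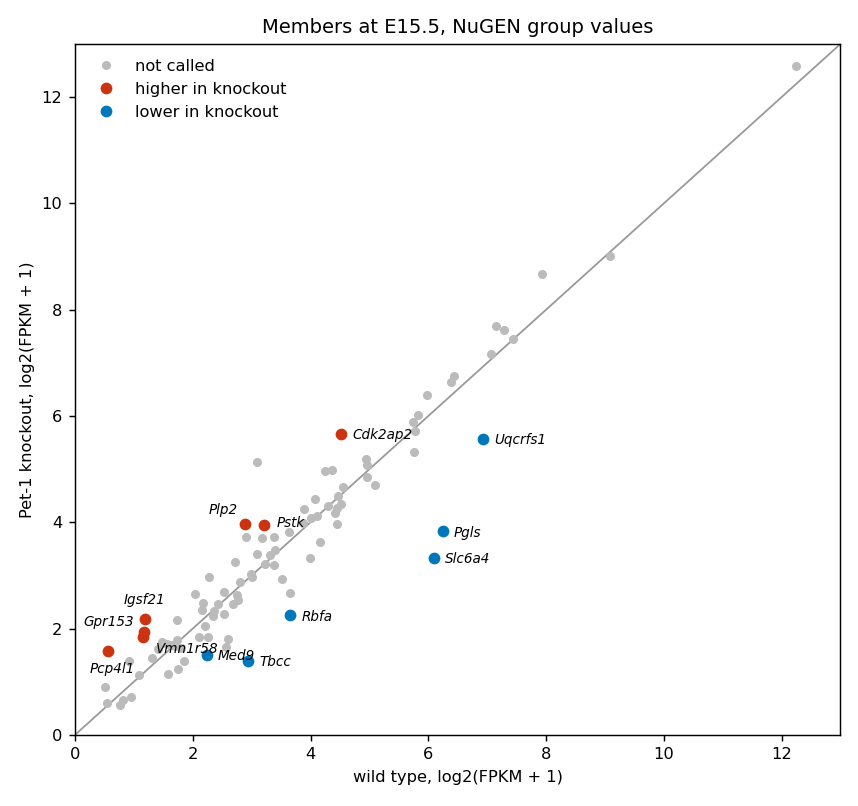
log2(FPKM + 1) of members with an accepted estimate in Pet-1-/- (vertical) against wild-type (horizontal) E15.5 neurons, NuGEN group values of the authors' deposited table; red and blue points were called higher and lower in Pet-1-/- and the line marks equal levels. Slc6a4, Pgls and Uqcrfs1 lie furthest below the line among abundant members.

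The E15.5 stage columns name no kit, and their libraries were taken as the wild type of the Clontech table. The members' changes in that table are therefore given beside the NuGEN ones, and nothing is read from their direction. There 2 of 89 tested members were higher and 2 lower in Pet-1-/- neurons, or 4.494%, against 2.82% of all genes tested (0.969% higher, 1.85% lower). Slc6a4 had 6.22 FPKM in Pet-1-/- and 25.6 in wild-type neurons, and Gpr153 had 2.62 and 0.544 FPKM, both called in the authors' deposited table. Slc10a4 had 81.9 FPKM in Pet-1-/- and 35.3 in wild-type neurons (authors' deposited q = 0.00391) with the Clontech kit, and 99.0 and 82.7 FPKM with the NuGEN kit, where it was not called (q = 0.494). Apoe had 1.15 FPKM in Pet-1-/- and 14.7 in wild-type neurons with the Clontech kit (authors' deposited q = 0.00391), and 2.13 and 4.94 FPKM with the NuGEN kit (q = 0.0756). Pgls, Rbfa, Tbcc and Uqcrfs1 were not called with the Clontech kit, where the deposited values were 49.9, 11.9, 3.96 and 103 FPKM in Pet-1-/- against 45.5, 8.20, 3.41 and 122 FPKM in wild-type neurons.

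The mycPet-1 peak list holds 4934 peaks, each with a score given by the authors, up to 3133 (median 88.3). A peak centre lay in the gene span or within 5 kb of it for 45 of 104 members matched to RefSeq (43.27%), against 38.9% of 11638 genes tested. A peak overlapped the 250-base promoter window of 27 of 88 members (30.68%) and of 29.96% of 9260 genes tested. With the gene span alone, 37 of 104 members (35.58%) held a peak centre, against 25.83% of genes tested. The first 2 shares lie nearer to those of all genes than the last. The highest-scoring peak within reach of a member, 851.23, lay 3927 bases from Nnat at chr2:157565877-157567027. It was followed by peaks centred inside Grk4, a receptor kinase (418.16), and Bag6 (415.54). Next came peaks centred 353 bases from Rnu12 (343.87) and 905 bases from Ssbp4, a single-stranded DNA binding protein (261.68). The peak of Cacnb1 (232.37) was centred 3968 bases outside its span. Rps2 (162.78), Gdf1, a growth factor of the TGF-beta family (162.26), Nrxn2 (154.25) and Wasl (147.77) completed the first 10. Of the 13 members called in the NuGEN knockout table, 3 had a peak within 5 kb, Igsf21, Cdk2ap2 and Uqcrfs1. Slc6a4 had none within 5 kb in this list.

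In the promoter windows, CCGGAAG was found on either strand in 16 of 88 members (18.18%), in 16.1% of 9260 genes tested and in 7.83% of all 27025 genes in the RefSeq table. TGACGTCA was found in 5 members (5.68%), in 3.19% of genes tested and in 1.77% of all genes. Besides Dusp1, Uqcrfs1 and Tmem198 these were Tbcc and Meg3. Its shorter form TGACG, which every TGACGTCA contains, was found in 19 members (21.59%), in 31.52% of genes tested and in 19.79% of all genes. The AP-1 motif TGANTCA was found in 3 members (3.41%), in 4.94% of genes tested and in 7.82% of all genes. The CArG box of serum response factor was found in 3 members (3.41%), in 1.43% of genes tested and in 1.62% of all genes. With 3 to 5 members in hand, these shares are counts of letters in a short window and nothing more.

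The members' genes were short. The RefSeq span had a median of 10.9 kb for 104 members, 21.3 kb for 186 genes that peaked at E15.5 and 22.7 kb for 11629 genes tested. It was under 10 kb for 49.04% of members, 25.81% of the peaking genes and 26.62% of the genes tested. At the far end, 4 of the 104 members were longer than 100 kb. Promoter windows had a median of 59.4% G and C for members, 57.6% for peaking genes and 60.0% for genes tested. The median number of CpG per window was 13.75 for members and 16.0 for genes tested.

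**Figure D5:**
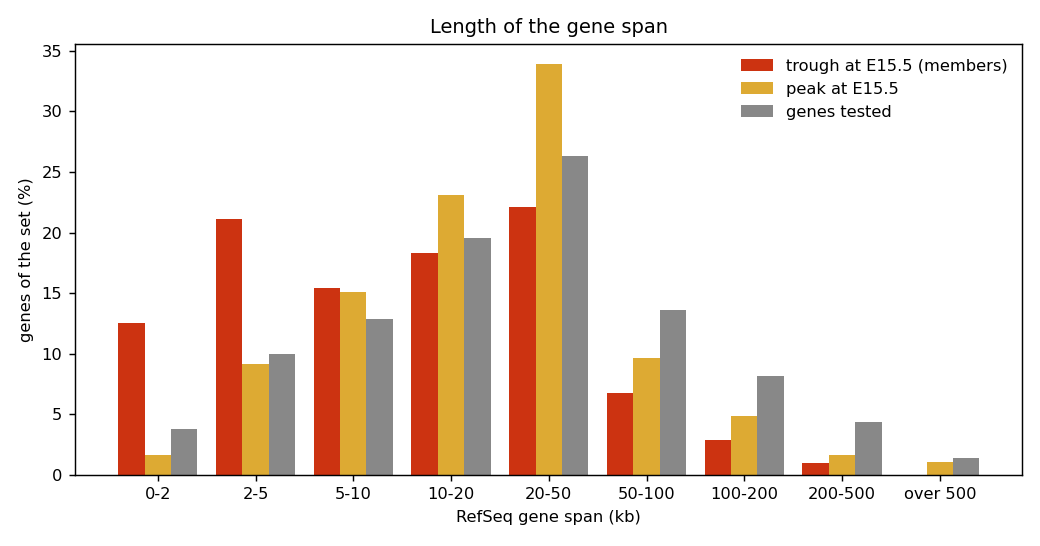
Share of genes (percent of each set) in each class of RefSeq gene span (kb) for 104 members, 186 genes that peaked at E15.5 and 11629 genes tested. Members exceed the other sets below 5 kb (21.15% between 2 and 5 kb, against 9.14% and 9.94%) and fall under them above 20 kb.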

How the data were processed

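Per the submitters' processing notes, reads were handled with TopHat2, Cufflinks, BWA and MACS 1.4.2, and mm9 and mm10 are both named as builds, with no role. Per the file headers, the authors deposited stage FPKM library by library and knockout FPKM as 1 value a genotype, the second from Cuffdiff. Knockout log2 fold changes, p-values and q-values are likewise the authors' deposited ones. Peaks came as the authors' deposited mm10 list with a score per peak. No label or header says whether FPKM were rescaled between libraries or whether counting used the strand.

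The E15.5 stage columns name no kit and were taken as the Clontech wild type from the labels' protocols. Columns carry no replicate number, so libraries are lettered in column order, and 3 columns that match no sample were not used. The stage matrix was put on the log2(FPKM + 1) scale, on which changes of low genes come out too small, and tested by limma 3.58.1 (R 4.3.3) with a mean-variance trend, in 1 fit over 9 libraries (6 residual degrees of freedom), and Benjamini-Hochberg adjustment over the 11741 genes that reached 1 FPKM in 3 or more libraries. A call needed an adjusted p below 0.05 and at least 1.5-fold, two-sided. Genes with a failed estimate (14) were left out. All 106 members passed the filter, which their high stages ensured. This fit was checked on simulated data. Knockout calls rest on the authors' q alone.

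Peaks and promoters were matched by symbol to RefSeq GRCm38.p6, where 104 members were found. Motifs were searched on both strands of 250 bases upstream of each start. Shares stand beside those of all genes tested, and no set test was made.

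The members, gene lists, families and role groups were chosen with earlier results of these data known. One member and 1 related gene are not reported here. Genes are named by depth (the first 20), by standing in a list, by a knockout call in the NuGEN table, by peak score (the first 10), by a call in PN against E11.5, and by nearness to the limit. Other members were named as examples of their role after their values were seen. Alternatives were another pseudocount, threshold, filter or scaling, each library left out in turn, other q, fold and peak limits, and motifs on the given strand alone.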

Additional observations from a re-analysis of the deposited data

How the results depend on the processing

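The number of genes meeting the rule was 106, and it was 284 with a pseudocount of 0.1, 305 with a threshold of 1 and 35 with a threshold of 2. It lay between 95 and 160 without each library in turn, and was 160 without E15.5 library b. Rescaling gave 135 (upper quartile) and 96 (median), and 96 of the 106 members met the rule under both. Upper quartile scaling moved the median of all genes in E15.5 against E11.5 by over 0.1, to -0.02 from 0.11 on the log2 scale. In PN against E11.5, without the filter on low values 4 members were called (3 higher, 1 lower), against 9 (6 higher, 3 lower). Without each library in turn, 5 to 11 members were called, 3 to 7 higher and 1 to 6 lower. Those lowered most were without E11.5 library a (5 in all, 1 lower), and without PN library a (3 higher), while 6 were lower without E11.5 library c. For lower calls, leaving out E11.5 library b or PN library c also gave 1. Over all genes, 2437 to 3296 were called in these alternatives, against 3215, with 1563 to 1998 higher and 869 to 1404 lower. At a q below 0.01 the NuGEN table called 6 members, 1 of them higher, and 1 member was higher in the Clontech table. The other knockout settings kept within 1.5 times of these counts. Members with a peak numbered 68 within 50 kb and 24 for the stronger peaks (score at or above the median), against 45. These were 65.38% of members against 61.31% of genes tested, and 23.08% against 21.65%, so both lay near the share of all genes. On the given strand alone TGACG was in 12 promoters (19 on both) and CCGGAAG in 8 (16 on both). The cause of these shifts was not tested. No paired analysis was possible because the columns carry no replicate number of the labels. The depth of the libraries is unknown, so no counting error could be given for members listed near 0 at E15.5, and 3 libraries per stage limit the precision of every mean.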
